A study of Mus musculus with 12 samples.

Results

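The smooth muscle contractile genes were followed here in whole mouse kidney, as 10 genes chosen by name out of 19938 genes tested: the actins Acta2 and Actg2, the thin filament proteins Tagln, Cnn1 and Tpm2, the myosin heavy chain Myh11, the coactivator Myocd, the intermediate filament desmin (Des), and the filament proteins Lmod1 and Smtn. Each of the 10 had 1 probe set that the platform table assigns to that gene alone, and 0 further probe sets named a member beside other genes. RNA was compared on 12 arrays in 4 groups of 3, all from mice aged 3 weeks, and each array carried RNA pooled from 3 mice. PpargΔ/Δ mice, which the series' title calls PPARgamma null, and their controls were of the strain Mixed C57BL6/SV129. AZIP mice and FVB control mice were both FVB. PPARγ is the nuclear receptor that drives fat cell formation, and the AZIP transgene is known as a blocker of fat tissue development. How the Pparg allele was deleted and which promoter drives the transgene could not be read from the labels. The controls of the PpargΔ/Δ mice are labelled only as control, with no genotype.

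Smooth muscle cells shorten when myosin, here the heavy chain encoded by Myh11, pulls on filaments of smooth muscle actin. Tropomyosin, calponin and transgelin line those filaments, and desmin ties the apparatus to the rest of the cell. Most of these genes are switched on by serum response factor (SRF), which binds a DNA element called the CArG box, together with its coactivator myocardin, the product of Myocd. In the kidney such cells form the wall of arteries and arterioles and the muscle coat of the renal pelvis. Acta2 is the actin of vascular smooth muscle and also of activated fibroblasts and pericytes, whereas Actg2 is the actin typical of visceral smooth muscle such as that of gut, bladder and ureter.

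Values are log2 intensities that the authors had summarised per probe set. Array medians were 7.1868 to 7.2071 on mutant arrays and 7.1712 to 7.186 on control arrays. Every mutant median thus lay above every control median. Differences are given on the log2 scale as mutant minus control, with limma's standard error (SE) and 3 arrays in each group. A difference passed when its limma p, adjusted over all 19938 genes, was under 0.05. Pparg itself did not pass in PpargΔ/Δ kidneys (0.11 ± 0.06, limma adjusted p = 0.339), where its values overlapped those of the controls, and since the deleted stretch of the gene is unknown here, the probe set does not check the labels. Markers of kidney epithelium summed to 38940 to 40330 on a linear scale on PpargΔ/Δ arrays and 39470 to 40930 on mixed control arrays, and to 38610 to 39490 on AZIP arrays and 39710 to 40150 on FVB control arrays. Of these 7 markers 1 was higher in PpargΔ/Δ kidneys, against 2.67% of all genes, the collecting duct water channel Aqp2 at 0.48 ± 0.10 (limma adjusted p = 0.022). Aqp2 lost its call without PpargΔ/Δ 2 or 3 or mixed control 1 or 3. By limma 0 of the 7 passed in AZIP kidneys, with 2 at an unadjusted p under 0.05, against 16.4% of all genes. Because each array holds a pool, the spread between arrays is not that between single mice. Whole-kidney RNA cannot tell more cells of a type from more RNA per cell.

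PpargΔ/Δ kidneys had higher levels of 6 of the 10 genes, namely Actg2, Acta2, Cnn1, Tagln, Tpm2 and Myocd, and 0 were lower past the threshold. Of all genes tested, 5.29% passed in this comparison, 2.67% as higher and 2.62% as lower. The median difference of the 10 genes was 0.42, against -0.0089 over all genes. Myh11, Des, Lmod1 and Smtn did not pass. In 7 genes every PpargΔ/Δ array read above every mixed control array, which held for 12.9% of all genes, and in Des and Lmod1 every one read below, which held for 13.2%.

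AZIP kidneys had higher levels of 3 of the 10 genes, Acta2, Tagln and Myocd, and 0 were lower past the threshold. Over all genes 2.43% passed in this comparison, 1.3% as higher and 1.13% as lower. The median difference of the 10 was 0.12, against 0.0028 over all genes. The groups did not overlap in 4 of the 10, all of them higher in AZIP, against 11% of all genes higher and 11.5% lower without overlap. Actg2, with the largest difference of the 10 in PpargΔ/Δ kidneys, was at -0.12 ± 0.08 in AZIP kidneys (limma adjusted p = 0.521). With only AZIP and FVB control arrays in the model 0 of the 10 passed (limma adjusted p = 0.120 for Acta2, 0.0974 for Tagln and 0.0709 for Myocd).

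**Figure D1:**
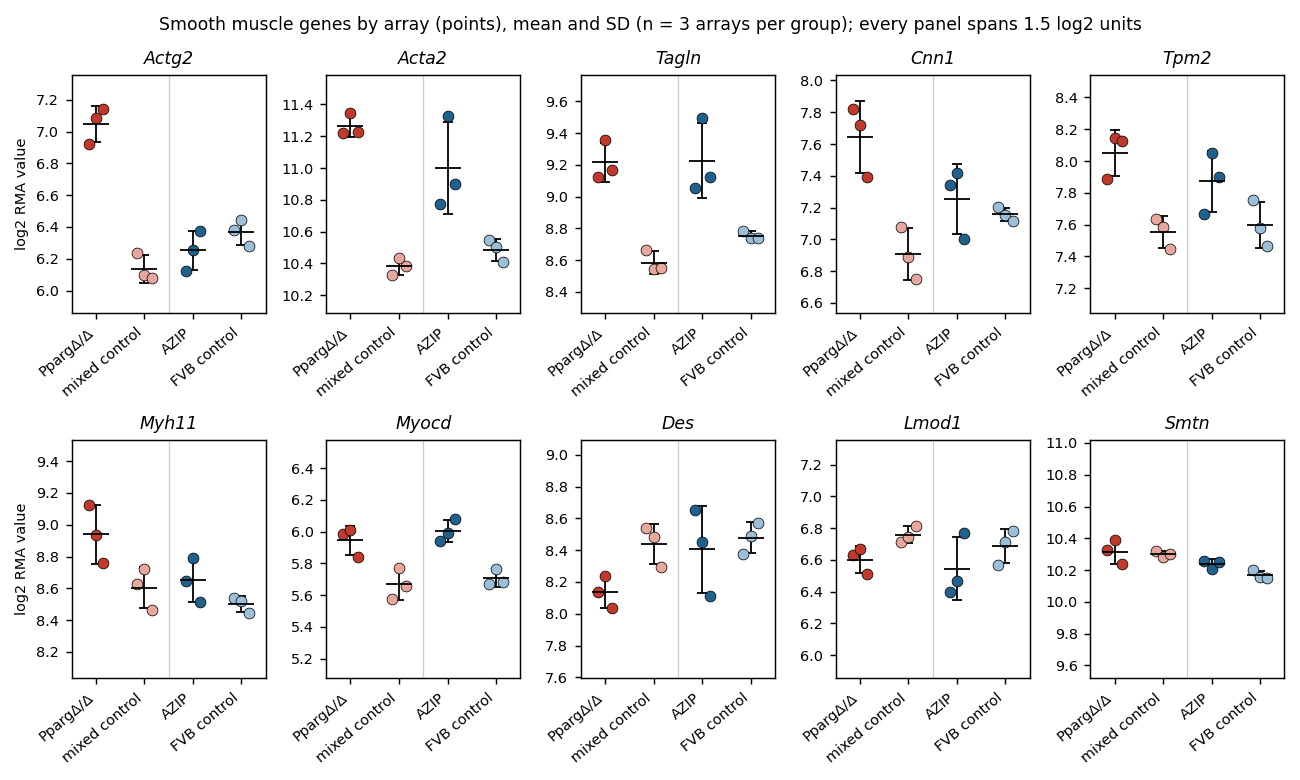
Log2 RMA value of each smooth muscle gene on each array (points), with the mean (bar) and SD (whiskers) of 3 arrays per group and the same height of log2 scale in every panel. Actg2 stands between 6.92 and 7.14 on PpargΔ/Δ arrays and between 6.08 and 6.45 on the 9 other arrays.

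Of the actins, Acta2 rose in both mutant lines and Actg2 in PpargΔ/Δ kidneys. Actg2 read 6.92, 7.09 and 7.14 on PpargΔ/Δ arrays, against 6.24, 6.10 and 6.08 on mixed control arrays. All 3 mutant arrays lay above all 3 controls. The rise was 0.91 ± 0.08 (1.88-fold, limma adjusted p = 0.000305), and Actg2 kept the threshold with each of the 6 arrays left out (adjusted p up to 0.00197 by limma).

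On AZIP arrays Actg2 read 6.13, 6.26 and 6.38, against 6.38, 6.45 and 6.28 on FVB control arrays. The groups overlapped, with AZIP 3 inside the range of the controls and AZIP 1 and 2 below it. The 95% confidence interval of the difference ran from -0.29 to 0.06. Group means were 7.05 in PpargΔ/Δ and 6.14 in mixed control kidneys, and 6.25 in AZIP and 6.37 in FVB control kidneys. PpargΔ/Δ arrays overlapped with none of the other groups, while AZIP arrays overlapped with both FVB control and mixed control. The share of all genes so separated from every other group was not counted. Actg2 was dim, with a mean of 6.45 over the 12 arrays, above 32.1% of all genes. Percentile 25 lay at 5.97, and Acta2 had a mean of 10.78, above 93.5%. How far a fall of Actg2 could show at that level was not tested.

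Acta2 read 11.22, 11.35 and 11.22 on PpargΔ/Δ arrays, against 10.33, 10.43 and 10.39 on mixed control arrays. The groups were far apart, and the rise was 0.88 ± 0.11 (1.84-fold, limma adjusted p = 0.00185). On AZIP arrays it read 10.77, 11.33 and 10.90, against 10.54, 10.50 and 10.41 on FVB control arrays. AZIP 2 was as high as the PpargΔ/Δ arrays, AZIP 1 and 3 lay between, and all 3 were above the controls. Acta2 rose by 0.52 ± 0.11 in AZIP kidneys (1.43-fold, limma adjusted p = 0.0365). Without AZIP 2 the difference was 0.35, and the call was lost without AZIP 3 or any 1 of the FVB control arrays (adjusted p up to 0.111 by limma).

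The windows of 250 bases before the start of Acta2, Cnn1 and Tpm2 are shown because these 3 are the genes past the threshold in PpargΔ/Δ kidneys for which the RefSeq promoter table holds an entry. They are written 5′ to 3′ on the gene's strand from the build GRCm38.p6. Capitals mark CArG boxes, searched on both strands, which read alike, as CC and GG around 6 bases that are A or T, with at most 1 G or C among them.

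Acta2 (chr19:34255374-34255623, minus strand): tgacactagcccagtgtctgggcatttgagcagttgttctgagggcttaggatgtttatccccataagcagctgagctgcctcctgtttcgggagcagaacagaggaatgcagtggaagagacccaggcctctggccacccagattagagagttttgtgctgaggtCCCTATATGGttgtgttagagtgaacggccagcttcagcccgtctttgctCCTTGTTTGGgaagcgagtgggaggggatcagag

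Cnn1 (chr9:22099003-22099252, plus strand): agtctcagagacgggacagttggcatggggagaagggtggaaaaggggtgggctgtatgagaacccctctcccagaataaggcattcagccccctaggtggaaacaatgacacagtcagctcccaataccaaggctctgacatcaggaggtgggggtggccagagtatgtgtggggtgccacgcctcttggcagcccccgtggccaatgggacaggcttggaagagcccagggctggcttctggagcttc

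Tpm2 (chr4:43523555-43523804, minus strand): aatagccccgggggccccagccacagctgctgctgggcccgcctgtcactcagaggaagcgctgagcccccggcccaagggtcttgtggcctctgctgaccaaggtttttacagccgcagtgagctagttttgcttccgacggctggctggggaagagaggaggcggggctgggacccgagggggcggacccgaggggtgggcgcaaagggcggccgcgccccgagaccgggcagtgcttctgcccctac

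The Acta2 window held 2 such elements, CCCTATATGG with its first base at position -84 and CCTTGTTTGG at -34 from the start of transcription. A match was found in the windows of 1 of 6 members with an entry and in 8.59% of 32851 windows of the same length. The strict form with no G or C in the core was in 0 of the 6 and in 1.47% of all windows, and the wider form was chosen after that result was seen. Actg2, Tagln, Myh11 and Myocd had no entry. These are matches of letters, with no binding measured.

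Among the proteins that line the actin filament, Tagln, Cnn1 and Tpm2 all rose in PpargΔ/Δ kidneys. Tagln, which encodes transgelin (SM22α), read 9.12, 9.35 and 9.17 on PpargΔ/Δ arrays, against 8.67, 8.54 and 8.55 on mixed control arrays. The groups did not overlap, and the rise was 0.63 ± 0.10 (1.55-fold, limma adjusted p = 0.00579). On AZIP arrays Tagln read 9.06, 9.50 and 9.12, against 8.79, 8.74 and 8.74 on FVB control arrays. Again every mutant array was above every control and AZIP 2 was the highest, with a rise of 0.47 ± 0.10 (1.39-fold, limma adjusted p = 0.0351). That call was lost without AZIP 2 or 3 or any 1 of the FVB control arrays (adjusted p up to 0.115 by limma).

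Cnn1, the smooth muscle calponin that holds back actomyosin ATPase, read 7.82, 7.72 and 7.39 on PpargΔ/Δ arrays, against 7.08, 6.89 and 6.75 on mixed control arrays. PpargΔ/Δ 3 was the lowest mutant array and still above the controls, and the rise was 0.74 ± 0.13 (1.67-fold, limma adjusted p = 0.0083). On AZIP arrays Cnn1 read 7.34, 7.42 and 7.0003, against 7.20, 7.15 and 7.12 on FVB control arrays. AZIP 3 lay below all FVB control arrays and the other two above them, at a difference of 0.10 ± 0.13 (limma adjusted p = 0.787).

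Tpm2, the β-tropomyosin gene, read 7.89, 8.14 and 8.13 on PpargΔ/Δ arrays, against 7.64, 7.58 and 7.44 on mixed control arrays. It rose by 0.50 ± 0.11 without overlap (1.41-fold, limma adjusted p = 0.0225), but lost the threshold without PpargΔ/Δ 2 or 3 or any 1 of the mixed control arrays (adjusted p up to 0.080 by limma). On AZIP arrays Tpm2 read 7.67, 8.05 and 7.90, against 7.75, 7.58 and 7.47 on FVB control arrays. AZIP 1 lay within the range of the controls, and the difference was 0.27 ± 0.11 (limma adjusted p = 0.223).

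Myh11, the smooth muscle myosin heavy chain, read 9.12, 8.94 and 8.76 on PpargΔ/Δ arrays, against 8.63, 8.72 and 8.47 on mixed control arrays. The lowest PpargΔ/Δ array stood just above the highest control, and the difference of 0.33 ± 0.10 did not pass (limma adjusted p = 0.0701). It passed in 4 alternatives: with a variance trend (limma adjusted p = 0.0479), with genes under percentile 50 left out (0.0385 by limma), with the replicate number as a block (0.0225 by limma) and without PpargΔ/Δ 3 (0.0468 by limma). On AZIP arrays Myh11 ranged from 8.51 to 8.79, against 8.44 to 8.54 on FVB control arrays, a difference of 0.15 ± 0.10 (limma adjusted p = 0.504).

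Myocd read 5.99, 6.01 and 5.84 on PpargΔ/Δ arrays, against 5.58, 5.77 and 5.66 on mixed control arrays. On AZIP arrays it read 5.94, 5.99 and 6.08, against 5.67, 5.77 and 5.68 on FVB control arrays. In both lines every mutant array was above its controls, by 0.28 ± 0.07 in PpargΔ/Δ kidneys (1.21-fold, limma adjusted p = 0.0324) and by 0.30 ± 0.07 in AZIP kidneys (1.23-fold, limma adjusted p = 0.039). Myocd was the only 1 of the 10 whose mean over the 12 arrays, 5.83, lay under percentile 25 of all genes (5.97), so that leaving dim genes out removes it. Its call in PpargΔ/Δ kidneys was lost without PpargΔ/Δ 1 or 2 or mixed control 1 or 3 (adjusted p up to 0.120 by limma). In AZIP kidneys it was lost without AZIP 2 or 3 or any 1 of the FVB control arrays (adjusted p up to 0.153 by limma).

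Des, Lmod1 and Smtn did not pass in either line. Des read 8.14, 8.24 and 8.03 on PpargΔ/Δ arrays, against 8.54, 8.48 and 8.30 on mixed control arrays. Every mutant array was below every control, yet the difference of -0.30 ± 0.12 did not pass (limma adjusted p = 0.173). On AZIP arrays Des spread from 8.11 to 8.65, around the FVB control arrays at 8.38 to 8.57, with a difference of -0.07 ± 0.12 (limma adjusted p = 0.832). Desmin is also made by mesangial cells. Of 5 measured mesangial markers, Des included, 0 passed by limma in either line, with 2 in PpargΔ/Δ kidneys at an unadjusted p under 0.05, against 20.4% of all genes, and 0 in AZIP kidneys, against 16.4%. The other 4, named with their values in view, were at -0.37 (Itga8), 0.0006 (Gata3), 0.18 (Ptn) and 0.03 (Thy1) in PpargΔ/Δ kidneys. All 5, Des included, summed on a linear scale to 1597 to 1898 on PpargΔ/Δ arrays and 1863 to 2010 on mixed control arrays. Des is thus part of that sum, and the part of mesangial cells in the Des value was not tested.

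Lmod1, a nucleator of smooth muscle actin filaments, ranged from 6.51 to 6.67 on PpargΔ/Δ arrays, against 6.71 to 6.82 on mixed control arrays, a difference of -0.15 ± 0.09 (limma adjusted p = 0.373). On AZIP arrays it ranged from 6.40 to 6.77, against 6.57 to 6.78 on FVB control arrays (-0.14 ± 0.09, limma adjusted p = 0.494). Smtn, which encodes the filament-binding protein smoothelin, ranged from 10.24 to 10.39 on PpargΔ/Δ arrays, against 10.28 to 10.32 on mixed control arrays. Its difference was 0.02 with a 95% confidence interval of -0.09 to 0.12, the narrowest of the 10. On AZIP arrays Smtn ranged from 10.21 to 10.26, against 10.15 to 10.20 on FVB control arrays, apart from each other but with a difference of 0.07 ± 0.05 (limma adjusted p = 0.523).

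**Figure D2:**
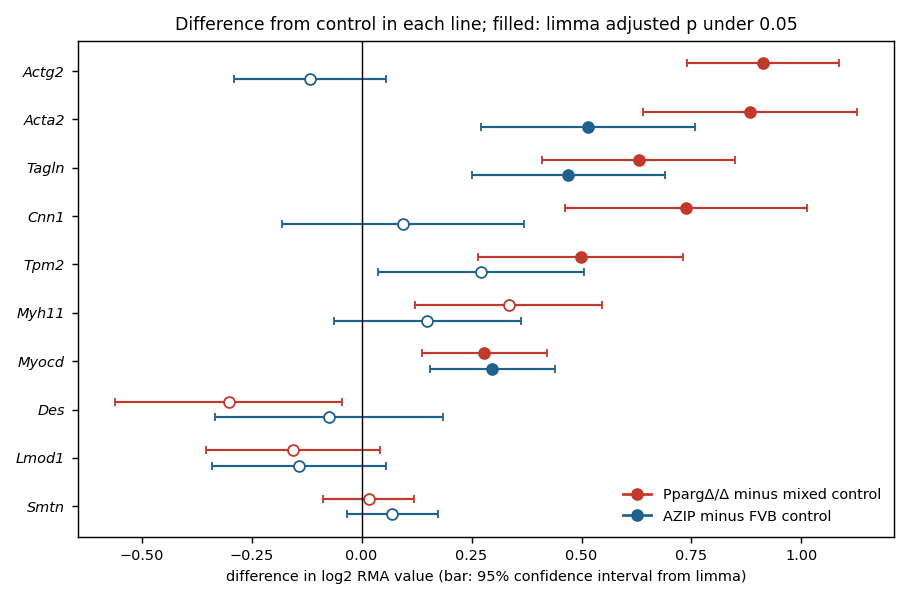
Difference in log2 RMA value from control for each gene in PpargΔ/Δ kidneys (red, upper) and AZIP kidneys (blue, lower), with the 95% confidence interval from limma and filled points where the adjusted p is under 0.05. Actg2 is at 0.91 in PpargΔ/Δ and -0.12 in AZIP kidneys with intervals that do not meet, as is the case for Cnn1, while those of the 8 other genes overlap.

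The visceral actin was then set against the vascular and general genes. The PpargΔ/Δ effect minus the AZIP effect was 1.03 ± 0.11 for Actg2 (limma adjusted p = 0.0206, 95% confidence interval 0.79 to 1.28). Actg2 had the smallest p of all 19938 genes in this contrast, in which 4 genes or 0.0201% passed. The other 3 were Krt5, Cfi and Ptgds. Cfi read 5.44 to 5.90 on AZIP and 5.45 to 5.69 on FVB control arrays, under percentile 25 of all genes (5.97). On mixed control arrays it read 9.14 to 9.68. How far a fall of Cfi could show on the FVB strain was not tested. The lines differ in strain as well as in genotype, and in this contrast these cannot be told apart. Of the 10 smooth muscle genes 1 passed, and 3 had an unadjusted p under 0.05, against 5.82% of all genes, with Cnn1 at 0.64 ± 0.18 (limma adjusted p = 0.606) and Acta2 at 0.37 ± 0.16 (limma adjusted p = 0.849).

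For Tagln the same contrast was 0.16 with a 95% confidence interval of -0.15 to 0.47, and for Myocd -0.02 with an interval of -0.22 to 0.18. The Actg2 call was lost without AZIP 1 or 2 or FVB control 2 (adjusted p up to 0.0625 by limma), and its value stayed between 0.97 and 1.09 with each of the 12 arrays left out. It was also lost with all probe sets tested (limma adjusted p = 0.114) and with the replicate number as a block (limma adjusted p = 0.0691).

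Array by array, Actg2 was set beside Acta2. Against the mean of the mixed controls it was higher by 0.78, 0.95 and 1.005 on the PpargΔ/Δ arrays, where Acta2 was higher by 0.84, 0.97 and 0.84. Against the mean of the FVB controls Actg2 was at -0.24, -0.11 and 0.01 on the AZIP arrays, where Acta2 was at 0.29, 0.84 and 0.42. Among the AZIP arrays, AZIP 2 was the highest in Acta2 and the middle one in Actg2. Actg2 exceeded the median of the 9 other genes by 0.58 in PpargΔ/Δ kidneys and stood at -0.27 from it in AZIP kidneys, values given with no test because the genes were chosen with results known. The first of these values lay between 0.44 (without PpargΔ/Δ 3) and 0.72 (without PpargΔ/Δ 1) when 1 array was left out.

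**Figure D3:**
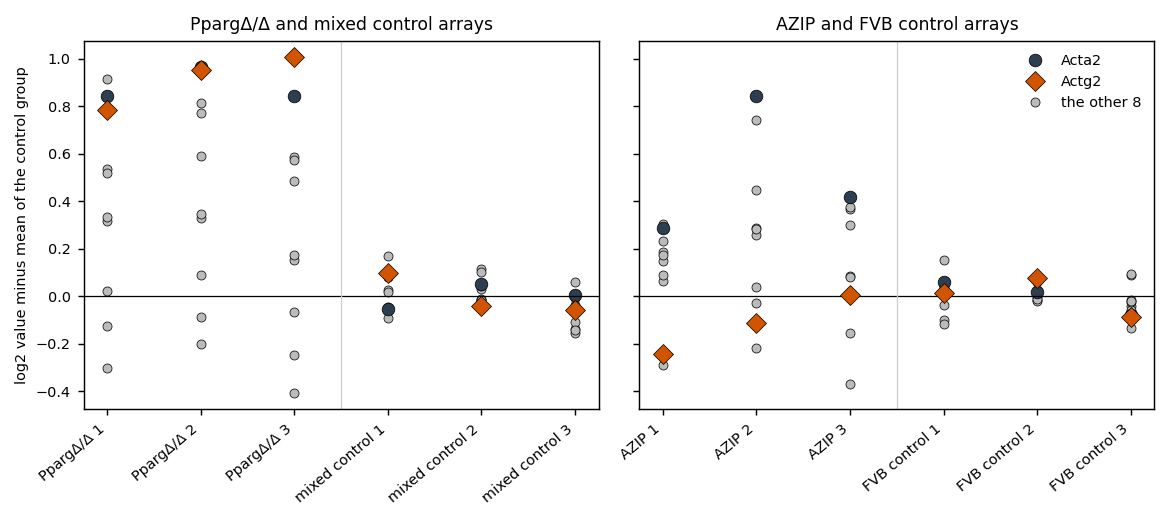
Log2 value of each of the 10 genes on each array minus the mean of that gene in the control group of the same background, with Actg2 as orange diamonds, Acta2 as dark points and the 8 others in grey. Actg2 is at 0.78 to 1.005 on the PpargΔ/Δ arrays and at -0.24 to 0.01 on the AZIP arrays.

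Other genes of the contractile apparatus, from a list of 25 of which 23 were measured, rose in part. In PpargΔ/Δ kidneys 6 were higher, against 2.67% of all genes, and 0 lower, with a median of 0.12. In AZIP kidneys 3 were higher, against 1.3% of all genes, and 0 lower, with a median of 0.12. Of the calls in PpargΔ/Δ kidneys 1, Csrp1, was kept without PpargΔ/Δ 2 or mixed control 1, and of those in AZIP kidneys 0 were kept without AZIP 2 or 3 or any 1 of the FVB control arrays. The LIM protein gene Csrp1 read 11.05, 11.23 and 11.24 on PpargΔ/Δ arrays, against 10.58, 10.71 and 10.68 on mixed control arrays, a rise of 0.52 ± 0.08 without overlap (limma adjusted p = 0.0057). In AZIP kidneys it rose by 0.45 ± 0.08 (limma adjusted p = 0.0195) and reached adjusted p up to 0.0875 by limma with 1 array left out. Myl9, the regulatory light chain of smooth muscle myosin, rose by 0.48 ± 0.09 in PpargΔ/Δ kidneys (limma adjusted p = 0.014) but not without PpargΔ/Δ 2 or mixed control 1 (adjusted p up to 0.063 by limma). Mylk, the kinase that activates that light chain and a gene picked with its values in view, was at 0.05 in PpargΔ/Δ and -0.004 in AZIP kidneys (limma adjusted p = 0.676 and 0.987).

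Relatives of the 10 genes that are not specific to smooth muscle, such as the cytoplasmic and striated muscle actins, had 2 of 18 higher and 0 lower in each line. These were Vim and Tpm1 in PpargΔ/Δ kidneys, against 2.67% of all genes higher, and Vim and Tagln2 in AZIP kidneys, against 1.3%. Tpm1 is also 1 of the 6 contractile genes above, and Vim is listed with the fibroblast genes too. Without any 1 of 5 arrays (all but PpargΔ/Δ 1) Tpm1 lost its call, and without any 1 of 5 (all but AZIP 1) 0 of the AZIP calls were kept. Vimentin, Vim, an intermediate filament of mesenchymal cells, rose by 0.48 ± 0.08 in PpargΔ/Δ kidneys (limma adjusted p = 0.0083). Of 10 SRF and myocardin regulators 1 rose in each line, against 2.67% of all genes in PpargΔ/Δ and 1.3% in AZIP kidneys. Tead1 rose by 0.33 ± 0.06 in PpargΔ/Δ kidneys (limma adjusted p = 0.014, and 0.0552 by limma without mixed control 2). Mrtfb rose by 0.28 ± 0.05 in AZIP kidneys (limma adjusted p = 0.0144, and up to 0.0565 by limma without AZIP 2 or FVB control 1). Srf itself, picked with its values in view, was at -0.02 in PpargΔ/Δ and -0.11 in AZIP kidneys (limma adjusted p = 0.870 and 0.352). Of 11 SRF targets outside smooth muscle 2 rose in PpargΔ/Δ (Vcl and Egr1) and 1 in AZIP kidneys (Vcl), against the same shares of all genes. Vcl is also counted among the contractile genes above, and 0 of these calls were kept without PpargΔ/Δ 2 or 3 or mixed control 1 or 2, or without AZIP 2 or 3 or any 1 of the FVB control arrays.

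Markers of cells that carry these genes were read beside them. Of 15 listed genes of vascular mural, pericyte and renin cells 12 were measured. The renin cell genes Ren1 and Akr1b7 were not among them. Of the 12, 2 were higher in each line and 0 lower, against 2.67% of all genes higher in PpargΔ/Δ and 1.3% in AZIP kidneys. The calls were Rgs5 and Mcam in PpargΔ/Δ and Rgs5 and Abcc9 in AZIP kidneys. Mcam lost its call without PpargΔ/Δ 2 or 3 or mixed control 1 (adjusted p up to 0.0707 by limma), and Abcc9 with each of the 6 arrays left out (adjusted p up to 0.170 by limma). The list summed on a linear scale to 7206 to 8233 on PpargΔ/Δ arrays and 6921 to 7337 on mixed control arrays. The sums were 8334 to 8627 on AZIP arrays and 7381 to 7524 on FVB control arrays. Rgs5, a regulator of G protein signalling found in pericytes, rose by 0.43 ± 0.07 in PpargΔ/Δ kidneys (limma adjusted p = 0.00693). In AZIP kidneys Rgs5 rose by 0.38 ± 0.07 (limma adjusted p = 0.0195), a call lost without AZIP 2 or 3 or FVB control 1 or 2 (adjusted p up to 0.0904 by limma).

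The 15 fibroblast and myofibroblast genes included Loxl3, which an alias match had put in place of the listed Loxl2. Of these 15, against 2.67% of all genes higher in PpargΔ/Δ and 1.3% in AZIP kidneys, 4 were higher and 0 lower in each line. In PpargΔ/Δ kidneys 2 of these calls, Tnc and Vim, were kept with each array left out. In AZIP kidneys 0 of the 4 were kept without AZIP 2 or without FVB control 1. Their medians were 0.20 in PpargΔ/Δ and 0.29 in AZIP kidneys. Their sum was 13950 to 14180 on PpargΔ/Δ arrays and 11130 to 11530 on mixed control arrays, and 12920 to 15830 on AZIP arrays and 11280 to 12040 on FVB control arrays. Tenascin C, Tnc, a matrix protein of repair, rose by 0.71 ± 0.11 in PpargΔ/Δ kidneys (limma adjusted p = 0.00551) and by 0.65 ± 0.11 in AZIP kidneys (limma adjusted p = 0.0152, and up to 0.077 by limma with 1 array left out). The part of fibroblasts and mural cells in the Acta2 and Tagln values was not tested.

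Genes of visceral and ureteric muscle other than Actg2 were then counted. By limma 0 of 10 passed in either line, with 2 at an unadjusted p under 0.05 in PpargΔ/Δ kidneys, against 20.4% of all genes, and 3 in AZIP kidneys, against 16.4%. Their medians were 0.02 and 0.05. Tbx18, Chrm2 and Tacr2, which mark the ureteric mesenchyme and the receptors of visceral muscle, lay under percentile 25 of all genes. The sum of the list was 2746 to 3033 on PpargΔ/Δ arrays and 2748 to 3018 on mixed control arrays, and 2871 to 2959 on AZIP arrays and 2741 to 2953 on FVB control arrays. Bmp4, picked with its values in view, had means of 10.66 on PpargΔ/Δ and 10.69 on mixed control arrays. The next brightest gene, Tshz3, had 8.35 and 8.31, so the sum mostly follows Bmp4 and says little about the dim genes. Skeletal and cardiac muscle genes summed to 1116 to 1176 on PpargΔ/Δ arrays and 1157 to 1203 on mixed control arrays. Of 14 such genes 1 was lower in PpargΔ/Δ kidneys, against 2.62% of all genes (Ttn, at -0.31 ± 0.05, limma adjusted p = 0.00771). In AZIP kidneys 0 of the 14 passed by limma, with 1 at an unadjusted p under 0.05, against 16.4% of all genes. Of 11 endothelial genes 1 rose in PpargΔ/Δ kidneys (Vwf), against 2.67% of all genes. Its call was lost with each of the 6 arrays left out (adjusted p up to 0.128 by limma). By limma 0 of the 11 passed in AZIP kidneys, with 1 at an unadjusted p under 0.05, against 16.4% of all genes.

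Markers of the urothelium, the lining that the muscle of the renal pelvis surrounds, moved in both directions in PpargΔ/Δ kidneys. Against 2.67% of all genes higher and 2.62% lower, 3 of 14 markers were higher and 2 lower there. Of these, Krt7 lost its call without any 1 of 5 arrays, all but PpargΔ/Δ 1 (adjusted p up to 0.156 by limma), and Grhl3, 1 of the 2 lower, with each of the 6 left out (adjusted p up to 0.126 by limma). In AZIP kidneys 1 was higher (Krt7, lost without AZIP 2 or FVB control 1), against 1.3% of all genes, and 0 lower. The basal keratin Krt5 read 8.55, 8.32 and 8.95 on PpargΔ/Δ arrays, against 6.86, 6.67 and 6.91 on mixed control arrays, and 6.80, 7.05 and 6.88 on AZIP arrays, against 6.70, 6.91 and 6.61 on FVB control arrays. As for Actg2, the PpargΔ/Δ arrays stood apart from the 9 others, and how many of all genes do so was not counted. The basal keratin Krt14 rose by 0.97 ± 0.14 (limma adjusted p = 0.00343), while Upk1b, a uroplakin of the surface cells, fell by 0.91 on the log2 scale (SE 0.15, limma adjusted p = 0.0083). The markers that did not pass in PpargΔ/Δ kidneys, named with their values in view, lay on both sides of 0. Above it were Psca (0.45), Krt17 (0.36), Krt20 (0.21), Upk3b (0.20) and Trp63 (0.07). Below it were Upk1a (-0.48), Upk3a (-0.21), Upk2 (-0.18) and Foxa1 (-0.02). The list summed to 4540 to 5235 on PpargΔ/Δ arrays and 4060 to 4261 on mixed control arrays, and to 4222 to 4802 on AZIP arrays and 3621 to 4025 on FVB control arrays. Krt7 weighs most in these sums, with means of 11.27 on PpargΔ/Δ, 11.02 on mixed control, 11.11 on AZIP and 10.73 on FVB control arrays. The part of the renal pelvis in the Actg2 value was not tested.

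**Figure D4:**
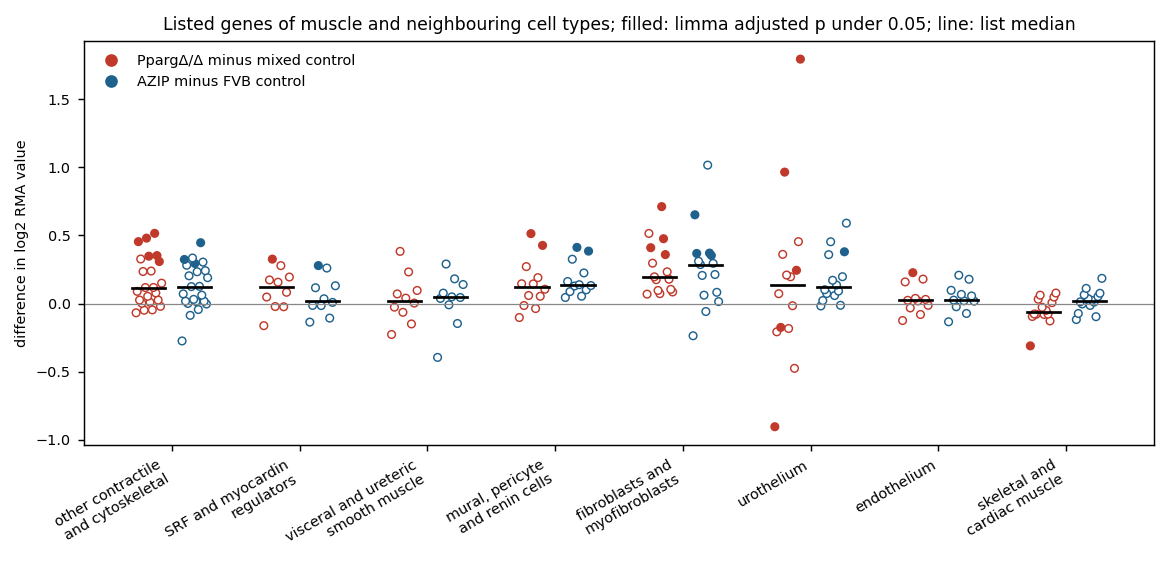
Differences from control (vertical axis, log2) of the measured genes of 8 lists in PpargΔ/Δ kidneys (red, left) and AZIP kidneys (blue, right), with the list median as a line and filled points where the limma adjusted p is under 0.05. In the visceral and ureteric list 0 of 10 points are filled, and Krt5 at 1.80 is the highest point of the urothelial list.

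Covariation of the 10 genes between arrays of the same group was unequal. With the group means removed, the 12 arrays gave a Pearson r of 0.87 for Acta2 with Tagln, 0.851 for Cnn1 with Myh11, and 0.733 for Tagln with Tpm2. The median over all pairs was 0.143, and Actg2 had a median r of -0.018 with the other genes, in a range from -0.472 for Des to 0.705 for Tpm2. These values are descriptions that rest on 12 arrays, which share their normalization. With the group means removed, 8 residual degrees of freedom remain.

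The genes most like Actg2 over the 12 arrays, outside the 10, were Krt5 (r = 0.936), Sprr2g (0.913), S100a8 (0.912), Il1r2 (0.902) and Dock1 (0.896). Those most like Acta2 were Cyp2j13 (r = 0.971), Adamts6 (0.967), Prep (0.964), Ppp2r1a (0.961) and Arrdc3 (0.960). With the group means removed Tes (0.941), Cdkal1 (0.941), Myl6 (0.939), Kcnc4 (0.935) and Psmc4 (0.926) were most like Acta2, and Pigx (0.970), Mroh7 (0.950), Uvssa (0.943), Zfpm1 (0.928) and Arhgef17 (0.925) most like Actg2. None of the 5 genes in the 1 ranking recurred in the other for the same actin. Each ranking holds the highest r among all other genes tested, and how high such a selection reaches by itself was not tested.

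Between the control kidneys of the 2 strains, FVB control minus mixed control, 0 of the 10 passed by limma, against 7.22% of all genes, with 2 at an unadjusted p under 0.05, against 19.7% of all genes. These were Actg2 at 0.23 ± 0.08 (limma adjusted p = 0.110), which passed with array weights (limma adjusted p = 0.0242), and Smtn at -0.13 ± 0.05 (limma adjusted p = 0.131). This comparison shares its arrays with the other 2. The FVB control arrays were above the mixed control arrays without overlap for 3 genes (Actg2, Tagln and Cnn1), against 15.8% of all genes, and below them for 1 (Smtn), against 12.7%.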

How the data were processed

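Each of the 12 arrays carried whole-kidney RNA. The authors deposited log2 intensities summarised by RMA, and the submitters' processing notes name Affymetrix Expression Console; its version, settings and annotation build are unknown here. RMA normalizes between arrays, which acts on shifts common to an array, and the small differences between array medians given above remained. The platform table gave 21789 of 35556 probe sets 1 symbol, 1621 several and 12146 none; Entrez numbers served to update 21698. Where a gene had several probe sets (999 genes), that of highest mean was kept, giving 19938 genes.

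A limma model (version 3.58.1, R 4.3.3) of the 4 group means used all arrays, with 8 residual and 3.71 prior degrees of freedom. The code was tested on simulated data. Adjustment was by Benjamini and Hochberg over all genes. The number of arrays limits precision (median SE 0.0698), and p-values measure the spread between pools. The 10 genes, the lists and the tests were chosen with earlier results of these data known. Named were the 10, up to 4 genes of smallest p past the threshold per list and line, dim defining markers, and the 5 genes most correlated with each actin; others are marked as picked with their values in view. The alternatives changed the scaling, the filter on dim genes (percentile 25 or 50), the choice of probe sets, the samples fitted, the variance model, array weights, the replicate block, or left out 1 array. Promoter sequences are RefSeq's (GRCm38.p6), matched by symbol for 6 of the 10. Protein sequences were not compared.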

Additional observations from a re-analysis of the deposited data

Results flagged for a closer look

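Actg2 differed between the mutant lines by a test of the difference itself. Its difference was 0.91 in PpargΔ/Δ kidneys and -0.12 in AZIP kidneys, and the PpargΔ/Δ effect minus the AZIP effect was 1.03 ± 0.11 (limma adjusted p = 0.0206, n = 3 arrays in each of the 4 groups). All 3 PpargΔ/Δ arrays were above their controls, and 2 of 3 AZIP arrays were below all of theirs. The lines also differ in strain, which cannot be told apart from genotype here. The call was lost with all probe sets tested (limma adjusted p = 0.114) and with the replicate block (limma adjusted p = 0.0691). It was also lost without AZIP 1 or 2 or FVB control 2. Groups held 3 arrays, too few for a test of single outlying arrays.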

How the results depend on the processing

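In PpargΔ/Δ kidneys 4 to 7 genes passed under the alternatives run, against 6 of the 10 as fitted, and 4 to 6 with 1 array left out. The filters on dim genes take members out of testing. That at percentile 25 removes Myocd and left 5 calls, and that at percentile 50 also removes Actg2, Cnn1 and Lmod1 and left 4. In AZIP kidneys the 3 calls became 0 with all probe sets tested and 0 with only the groups compared, and 0 to 3 with 1 array left out. For the difference of the effects the 1 call became 0 with all probe sets tested, 0 with the dimmer 50% of genes left out, which removes Actg2, 0 with the replicate block and 0 to 1 with 1 array left out; apart from that removal, the cause was not tested. Between the control groups array weights gave 1 call, an alternative added after seeing the data, and leaving out 1 array gave 0. Actg2 minus the median of the other genes ranged from 0.44 to 0.72 in PpargΔ/Δ and from -0.40 to -0.20 in AZIP kidneys with 1 array left out. Values near 0 that changed sign were Smtn in PpargΔ/Δ kidneys (-0.00297 with equal array medians) and, in the difference of effects, Myocd (0.011) and Lmod1 (0.00440) with quantile normalization and Lmod1 (0.022) with array weights. With 1 array left out the ranges that cross 0 were, in PpargΔ/Δ kidneys, -0.021 to 0.056 for Smtn; in AZIP kidneys, -0.20 to 0.074 for Des; in the difference of effects, -0.064 to 0.034 for Myocd and -0.088 to 0.098 for Lmod1; and between the controls, -0.0080 to 0.089 for Myocd, -0.032 to 0.111 for Tpm2 and -0.033 to 0.089 for Des.

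The labels do not say whether the replicate numbers pair the arrays. Between PpargΔ/Δ and mixed control, same-numbered deviations from the group means correlated at 0.184, 0.179 and 0.0086. Differently numbered ones correlated at -0.26 to 0.147. Between AZIP and FVB control, same-numbered deviations correlated at -0.036, -0.104 and -0.0099, and differently numbered ones at -0.108 to 0.1535. So few values cannot decide whether arrays were paired. With the replicate block 7 of the 10 passed in PpargΔ/Δ and 3 in AZIP kidneys. Over all genes the count in PpargΔ/Δ kidneys was 1055 as fitted, 607 with only the groups compared and 330 (without mixed control 1) to 1084 (without PpargΔ/Δ 1) with 1 array left out. In AZIP kidneys it was 485 as fitted, 836 with genes under percentile 50 left out, 785 with a variance trend, 176 with all probe sets, 162 with only the groups compared and 62 (without FVB control 1) to 569 (without AZIP 1). For the difference of effects it was 4 as fitted, 1 with genes under percentile 50 left out, 0 with all probe sets, 1 with the replicate block and 0 to 9 with 1 array left out. Between the controls it was 1439 as fitted, 2219 with array weights and 852 to 947 with 1 array left out. Shifting arrays to the same median moved the split of all calls to 436 higher and 694 lower in PpargΔ/Δ kidneys, against 532 and 523 as fitted, and to 203 and 326 in AZIP kidneys, against 260 and 225, while the 6 and 3 calls among the smooth muscle genes were all higher under both.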
